A study of Mus musculus with 6 samples.

Results

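Death receptors and their relatives in the tumor necrosis factor (TNF) receptor superfamily were examined in cultured Lewis cells by RNA-seq. Lewis is a mouse lung carcinoma line. The 10 genes were Eda2r, Tnfrsf10b, Fas, Tnfrsf1a, Tnfrsf1b, Tnfrsf12a, Ltbr, Cd40 and Tnfrsf9, which encode receptors, and Tnf, which encodes a ligand. They were taken by gene symbol from the 16081 genes listed by the authors, and all 10 were listed. The genes were chosen by name with the difference between SD70 and DMSO in these samples already known, so that difference is given for them as measured values, with no p-value, and counts of them past a threshold are a description. One group of 3 samples was kept for 24 hours with the vehicle DMSO, and the other group of 3 for 24 hours with SD70, which the study uses as an inhibitor of the histone demethylase KDM4C. All 6 samples came from this one line, for which the labels name no genetic change, and the sources used here give no SD70 dose for this experiment. The labels' extraction protocol speaks of tissue although the samples are cultured cells. The study's methods state in general that experiments were repeated independently, but neither its account of the RNA-seq nor the sample labels say that the 3 samples of a group were separate cultures. The p-values given for other genes measure the spread between these samples, which may be technical if they were not.

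Receptors of this superfamily sit in the plasma membrane and carry cysteine-rich repeats outside the cell. Death receptors, such as FAS and the TRAIL receptor encoded by Tnfrsf10b, use a cytoplasmic death domain to recruit FADD and caspase-8 and so can start apoptosis. TNFR1, encoded by Tnfrsf1a, has a death domain too and reaches either NF-kappaB or cell death through TRADD and RIPK1, whereas TNFR2, CD40, 4-1BB, the lymphotoxin beta receptor and FN14 lack it and bind TRAF adaptors directly. EDA2R, also named XEDAR, is the receptor of the ectodysplasin isoform EDA-A2, and Eda2r and Fas are known targets of p53. On T cells, 4-1BB (Tnfrsf9) is a costimulatory receptor, and CD40 is best known on B cells and other antigen-presenting cells.

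Totals lay between 15276744 and 17060424 counts per sample. The 5 epithelial markers summed to 148 to 155 FPKM in DMSO and 94.5 to 106 FPKM in SD70. Most of it was Krt8 (log2 fold change -0.55, edgeR adjusted p = 3.28e-11), Krt18 at 1.67 to 4.76 FPKM was lower in SD70 too (log2 fold change -1.22, adjusted p = 2.97e-07), and Krt19, Epcam and Cdh1 had at most 1 count in any sample. FPKM, fragments scaled to transcript length and sequencing depth, is a level per length. Of 6 markers of lung epithelium, 2 were listed, Napsa with 65 to 85 counts and Sftpc with at most 1. Among markers of immune cells, Cd8a had at most 4 counts and was the 1 listed of 7 for T and NK cells, and Ptprc, the pan-leukocyte gene, had at most 2. Of 8 markers of myeloid cells, 5 were listed, and they summed to 14.1 to 15.2 FPKM in DMSO and 9.96 to 11.7 FPKM in SD70. Most of the sum was Cd68 (log2 fold change -0.48, edgeR adjusted p = 1.21e-04), while Csf1r and Fcer1g had at most 2 counts. Lyz2, the other myeloid marker tested, had 11 to 15 counts in DMSO and 15 to 26 in SD70 (log2 fold change 0.79, edgeR adjusted p = 0.0256). All 4 endothelial markers were listed. Cdh5 had 56 to 65 counts in DMSO and 60 to 64 in SD70, and Pecam1, Kdr and Tek had at most 4 in any sample. In a bulk sample, fewer cells of a type and less RNA per cell cannot be told apart.

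Of the 10 genes, 9 had enough counts to enter the fit across 11552 genes. The exception was Tnf. Eda2r, Fas and Cd40 passed both thresholds, an adjusted p-value below 0.01 and a log2 fold change (log2FC) beyond 1 in either direction, all 3 being higher in SD70. Over all genes tested 5.90% were called by these thresholds, 3.29% higher and 2.61% lower in SD70. Without the fold minimum, 7 of the 9 passed the adjusted p-value, 6 higher and 1 lower, against 49.9% of all genes, 25.8% higher and 24.2% lower. The groups did not overlap in the same number of genes, SD70 lying above DMSO in 6 and below in 1, where 64.4% of all genes tested had groups that did not overlap, 32.8% above and 31.6% below. Because the genes were chosen with this contrast known, nothing is read from these counts.

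**Figure D1:**
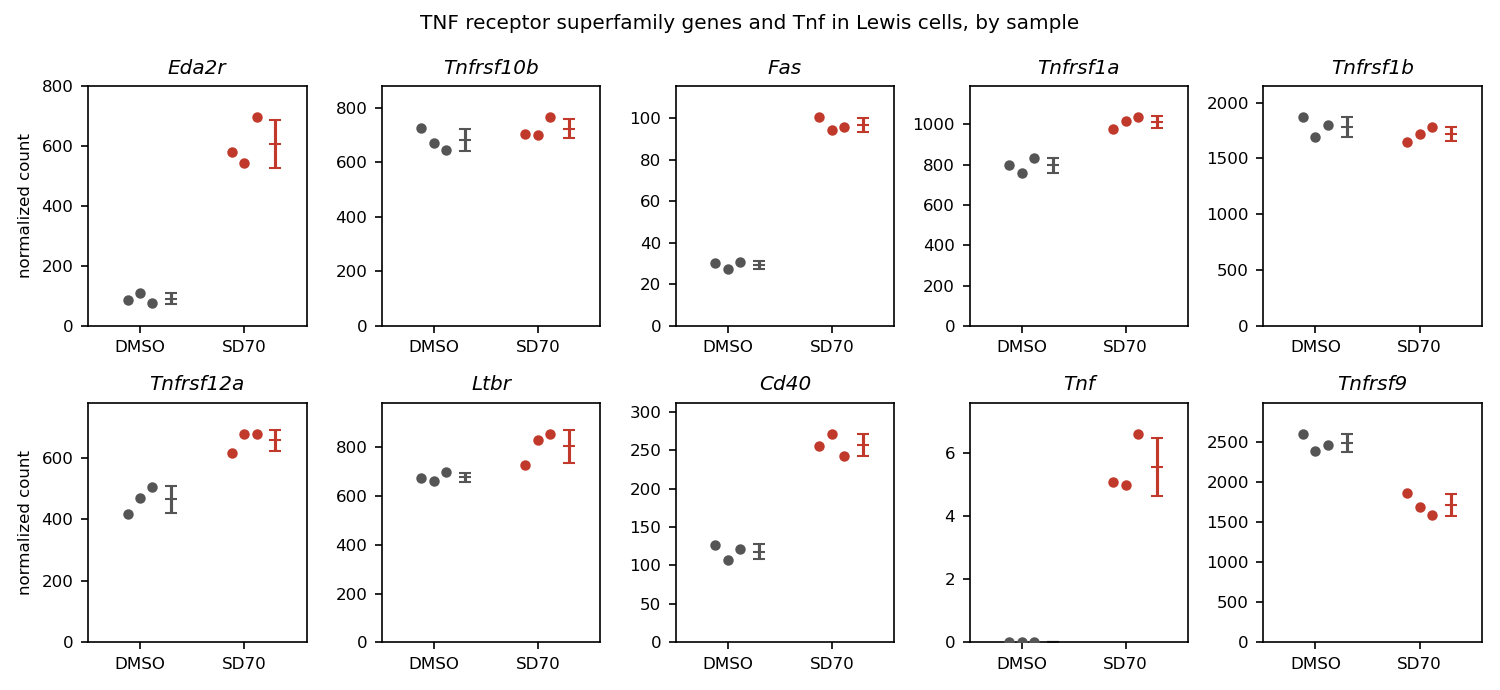
Normalized counts (y axis, from 0) of the 9 receptor genes and Tnf in each sample of the DMSO (gray) and SD70 (red) groups, with the mean and SD (n = 3) beside the points. SD70 samples lie above every DMSO sample for Eda2r, Fas, Tnfrsf1a, Tnfrsf12a, Ltbr, Cd40 and Tnf, below them for Tnfrsf9, and overlap them for Tnfrsf10b and Tnfrsf1b.

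Among the receptors with a cytoplasmic death domain, Fas (NCBI Gene 14102) stood apart from the other 2. Fas spans 34290647 to 34327775 of chromosome 19 on GRCm38.p6. Its counts, normalized by TMM to the average effective library, were 30.2, 27.2 and 30.7 in DMSO and 100.5, 94.3 and 95.7 in SD70. The groups were well separated, and the samples within a group lay close together. The mean was 29.4 ± 1.89 in DMSO and 96.8 ± 3.21 in SD70 (± SD, n = 3 per group), 3.30-fold, with a log2FC of 1.72 (SE 0.175, the standard error).

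Tnfrsf10b (NCBI Gene 21933; chromosome 14, 69767472 to 69784411), which encodes the mouse TRAIL death receptor, had normalized counts of 726.9, 670.1 and 646.4 in DMSO and 704.3, 700.1 and 764.6 in SD70. The groups overlapped, and the means of 681 ± 41.4 and 723 ± 36.1 (± SD, n = 3 per group) differed by about the spread of a group. The log2FC was 0.09 (SE 0.0664). Of its 6 counts, 3 were not whole numbers, as counting tools give where reads are divided between features. Within a sample, the ratio of Tnfrsf10b to Fas in FPKM was 10.2 ± 0.811 in DMSO and 3.19 ± 0.163 in SD70 (± SD, n = 3 per group).

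Tnfrsf1a (NCBI Gene 21937; chromosome 6, 125349723 to 125362483) had 800.0, 756.6 and 831.5 normalized counts in DMSO and 978.3, 1017 and 1035 in SD70. The SD70 samples were all above the DMSO samples, by a smaller factor than for Fas. The means were 796 ± 37.6 and 1010 ± 29.1 (± SD, n = 3 per group), 26.9% higher in SD70, and the log2FC was 0.34 (SE 0.0605).

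Eda2r (NCBI Gene 245527), whose product signals through TRAF adaptors, had the largest fold difference of the 9 receptors. It lies on the minus strand of the X chromosome between 97333837 and 97377234. Normalized counts were 87.7, 109.7 and 75.8 in DMSO and 580.5, 542.2 and 696.4 in SD70. The lowest SD70 sample was far above the highest DMSO sample. The mean was 91.1 ± 17.2 in DMSO and 606 ± 80.3 in SD70 (± SD, n = 3 per group), 6.66-fold, with a log2FC of 2.73 (SE 0.116). Its ligand gene, Eda, had at most 1 count in any sample, and Edaradd, the adaptor of the related receptor EDAR, had at most 8. RefSeq places the pseudogene Gm18111 within the bounds of Eda2r, and whether reads were counted by strand is not given in the sources used here.

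The sequence before the start site is shown for Eda2r and Fas, the pair with the largest fold differences, and for Tnfrsf9, the receptor lower in all SD70 samples. Sequences come from RefSeq on GRCm38.p6, read 5′ to 3′ on the gene's strand, and end at the outermost annotated gene boundary. They cover chrX:97377235-97377459 (minus strand), chr19:34290409-34290646 (plus strand) and chr4:150919905-150920154 (plus strand). Capitals mark a TATA box (TATAAA) in Eda2r and an AP-1 motif (TGANTCA) in Fas, both searched on either strand, and the Tnfrsf9 stretch holds no match.
Eda2r: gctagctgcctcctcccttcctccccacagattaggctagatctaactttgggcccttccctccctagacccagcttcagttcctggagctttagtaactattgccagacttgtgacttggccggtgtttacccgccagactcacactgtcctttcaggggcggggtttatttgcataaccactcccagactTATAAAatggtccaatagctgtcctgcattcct
Fas: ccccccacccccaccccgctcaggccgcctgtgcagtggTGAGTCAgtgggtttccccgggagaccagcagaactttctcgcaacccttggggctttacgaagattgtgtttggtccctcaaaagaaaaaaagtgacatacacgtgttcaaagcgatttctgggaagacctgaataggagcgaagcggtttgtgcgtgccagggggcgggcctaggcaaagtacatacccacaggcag
Tnfrsf9: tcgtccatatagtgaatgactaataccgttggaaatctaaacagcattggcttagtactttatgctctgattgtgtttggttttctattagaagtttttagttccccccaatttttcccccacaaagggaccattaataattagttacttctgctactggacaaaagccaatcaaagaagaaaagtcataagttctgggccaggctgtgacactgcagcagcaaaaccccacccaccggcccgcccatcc

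Promoter windows from 250 bases before to 50 after a start site were held for 8 of the 10 genes, without Cd40 and Tnfrsf10b. Positions are counted from the start site of the window. In Eda2r and Fas this site lies inside the gene boundary at which the stretch shown ends, so positions differ from distances to that end. The TATA box was found in Eda2r, beginning at -58 from the start site, and in Tnf, at -29, and 13.6% of all 32851 windows held it. The AP-1 motif was found in Fas, at -211, and in a second Tnfrsf9 window, at -15, against 7.81% of all windows. The NF-kappaB consensus was matched in that second Tnfrsf9 window alone, at -43 and -42 on overlapping letters, against 4.51% of all windows. The p53 half-site consensus (in 8.36% of all windows) and the core of the amino acid response element, TGATGNAA (3.97%), matched none of the 8 genes. A match is a description of letters and no match says only that they are not in this window.

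A second measure could be read from the files for Eda2r. Dividing a gene's count by its FPKM and by the sample's total gives the effective transcript length that the authors' FPKM used, which depends on the transcripts to which reads were assigned. For Eda2r this length was 5353, 5024 and 5647 bases in DMSO and 4211, 4631 and 4357 bases in SD70. All 3 SD70 samples were shorter than all 3 DMSO samples. The means were 5341 ± 312 and 4400 ± 213 bases (± SD, n = 3 per group), a log2 ratio of -0.28. In Fas the log2 ratio was -0.04, with groups that did not overlap, and in the other 7 receptor genes, whose groups overlapped, it was between -0.02 and 0. Among 9617 genes averaging 100 normalized counts or more and reaching 0.5 FPKM in every sample, the median absolute log2 ratio was 0.00848, and 6 genes, Eda2r among them, had a ratio at least as large as that of Eda2r (0.0624%). The groups did not overlap in length in 12.1% of these genes. This measure was singled out after its values were seen. GENCODE M21 lists 4 Eda2r transcripts, of 4752, 2153, 1433 and 779 bases, and the transcript set behind the authors' FPKM is not given in the sources used here. The fold difference of this gene therefore depends on the unit. Eda2r FPKM was 1.05 ± 0.264 in DMSO and 8.23 ± 1.26 in SD70 (± SD, n = 3 per group), 7.82-fold.

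**Figure D2:**
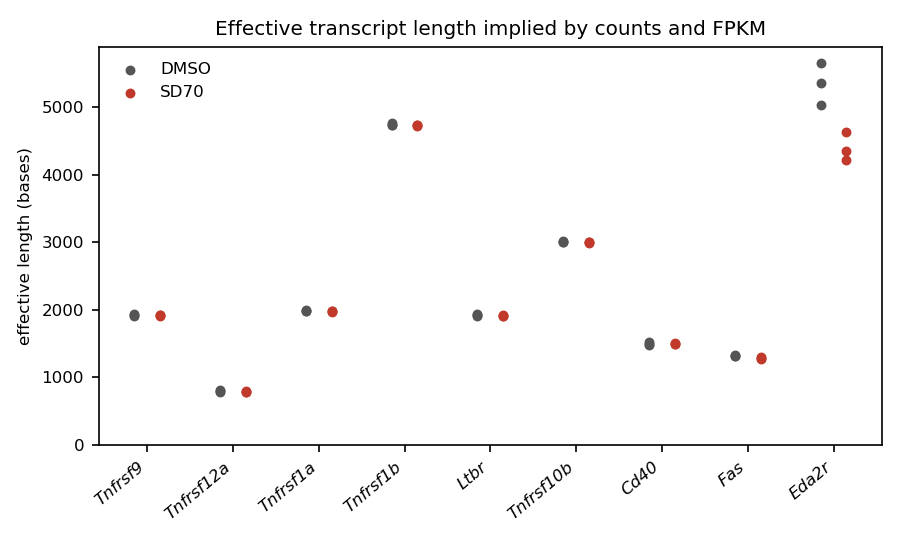
Effective transcript length in bases (y axis, from 0) computed from count, FPKM and sample total for each of the 9 receptor genes, with 3 DMSO (gray) and 3 SD70 (red) samples per gene. Eda2r lies between 5024 and 5647 bases in DMSO and between 4211 and 4631 in SD70, while the points of the other genes nearly coincide.

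Among the receptors without a death domain that bind TRAF proteins, Cd40 (NCBI Gene 21939; chromosome 2, 165055614 to 165071654) had the largest fold difference after Eda2r. Its normalized counts were 126.7, 106.8 and 120.8 in DMSO and 255.7, 271.1 and 242.0 in SD70. The groups were separate, with the lowest SD70 sample well above the highest DMSO sample. The mean went from 118 ± 10.2 to 256 ± 14.5 (± SD, n = 3 per group), 2.17-fold, with a log2FC of 1.12 (SE 0.107). On log2(FPKM + 1), a scale that understates changes of low genes, the log2FC was 0.95, under the fold minimum. Of the 4 B-cell markers 2 were listed, Cd79a with 10 to 19 counts in DMSO and 3 to 11 in SD70 and Cd79b with at most 3 in any sample.

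Tnfrsf12a (NCBI Gene 27279; chromosome 17, 23675445 to 23677449) encodes FN14, the receptor of the cytokine TWEAK. It had 418.0, 469.1 and 505.4 normalized counts in DMSO and 616.0, 677.3 and 675.5 in SD70. No DMSO sample reached the lowest SD70 sample. The means were 464 ± 43.9 and 656 ± 34.9 (± SD, n = 3 per group), 41.4% higher in SD70, and the log2FC was 0.50 (SE 0.0742). The neighbouring gene Hcfc1r1 overlaps Tnfrsf12a in RefSeq.

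Ltbr (NCBI Gene 17000; chromosome 6, 125306571 to 125313885), the lymphotoxin beta receptor, had 673.3, 660.4 and 698.1 normalized counts in DMSO and 728.6, 830.2 and 855.9 in SD70. The groups did not overlap, but the lowest SD70 sample was close to the highest DMSO sample. The means were 677 ± 19.2 and 805 ± 67.3 (± SD, n = 3 per group), 18.8% higher in SD70 and 1.90 times the larger SD apart. The log2FC was 0.25 (SE 0.0667).

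Tnfrsf1b (NCBI Gene 21938; chromosome 4, 145212368 to 145246870), which encodes TNFR2, had 1869, 1690 and 1798 normalized counts in DMSO and 1651, 1719 and 1779 in SD70. The groups overlapped, and the means of 1786 ± 90.2 and 1716 ± 64.0 (± SD, n = 3 per group) differed by less than the SD in DMSO. The log2FC was -0.06 (SE 0.0547). Side by side in FPKM, the ratio of TNFR1 to TNFR2 transcripts within a sample was 1.03, 1.07 and 1.10 in DMSO and 1.42, 1.41 and 1.40 in SD70. The ratio was higher in every SD70 sample than in any DMSO sample.

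Tnfrsf9 (NCBI Gene 21942; chromosome 4, 150920155 to 150946104), which encodes 4-1BB, was the receptor whose level was lower in all SD70 samples. Its normalized counts were 2604, 2383 and 2468 in DMSO and 1865, 1696 and 1590 in SD70. Every SD70 sample was below every DMSO sample. The means were 2485 ± 111 and 1717 ± 139 (± SD, n = 3 per group), and the log2FC was -0.53 (SE 0.0569). The change in the mean was -30.9%. Beside this, Cd8a counts were between 1 and 4 in DMSO and between 1 and 3 in SD70.

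Tnf (NCBI Gene 21926; chromosome 17, 35199367 to 35202007), the one ligand among the 10 genes, had 0, 0 and 0 counts in DMSO and 5, 5 and 6 in SD70. All SD70 samples had some counts and no DMSO sample had any. Against a floor of 3 counts over the whole DMSO group, scaled for library size, the observed Tnf counts in SD70 were 5.70-fold higher. The floor allows for counting error in DMSO alone. Neither the counting error of the few SD70 counts nor the spread between samples is in this ratio, so it is not a lower bound. In FPKM, Tnf was between 0.2 and 0.27 in SD70, far under every receptor.

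Per length, the order of the receptors in DMSO ran from Tnfrsf9 (79.0 ± 3.67 FPKM) through Tnfrsf12a (35.6 ± 2.92), Tnfrsf1a (24.5 ± 1.03), Tnfrsf1b (23.0 ± 1.12), Ltbr (21.5 ± 0.472), Tnfrsf10b (13.8 ± 0.873), Cd40 (4.82 ± 0.421) and Fas (1.36 ± 0.0808) to Eda2r (1.05 ± 0.264), each with SD and n = 3. Tnfrsf1a and Tnfrsf1b, Tnfrsf1b and Ltbr, and Fas and Eda2r were neighbours whose samples overlapped. The level of Tnfrsf9 was higher than that of 91.0% of the genes tested, and that of Eda2r higher than 9.37%. With SD70 the levels were Tnfrsf9 53.3 ± 4.15, Tnfrsf12a 49.8 ± 2.62, Tnfrsf1a 30.5 ± 0.947, Ltbr 25.1 ± 2.14, Tnfrsf1b 21.6 ± 0.837, Tnfrsf10b 14.4 ± 0.734, Cd40 10.2 ± 0.530, Eda2r 8.23 ± 1.26 and Fas 4.49 ± 0.0862 FPKM (± SD, n = 3 per group). Here Tnfrsf9 and Tnfrsf12a were the neighbours that overlapped, and Eda2r was above Fas in every SD70 sample. Eda2r stood above 36.9% of the genes tested, and Tnfrsf9 above 85.4%.

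Summed over the 9 receptor genes, the level was 205 ± 4.84 FPKM in DMSO and 218 ± 3.12 FPKM in SD70 (± SD, n = 3 per group). Of this sum, Tnfrsf9 took 38.6% ± 1.18 in DMSO and 24.5% ± 2.27 in SD70, and Tnfrsf12a took 17.4% ± 1.59 and 22.9% ± 0.907. Eda2r took 0.516% ± 0.142 in DMSO and 3.78% ± 0.551 in SD70, Cd40 2.35% ± 0.154 and 4.70% ± 0.276, and Fas 0.665% ± 0.0244 and 2.07% ± 0.0592 (± SD, n = 3 per group). These shares in FPKM carry the change in effective length of Eda2r with them.

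**Figure D3:**
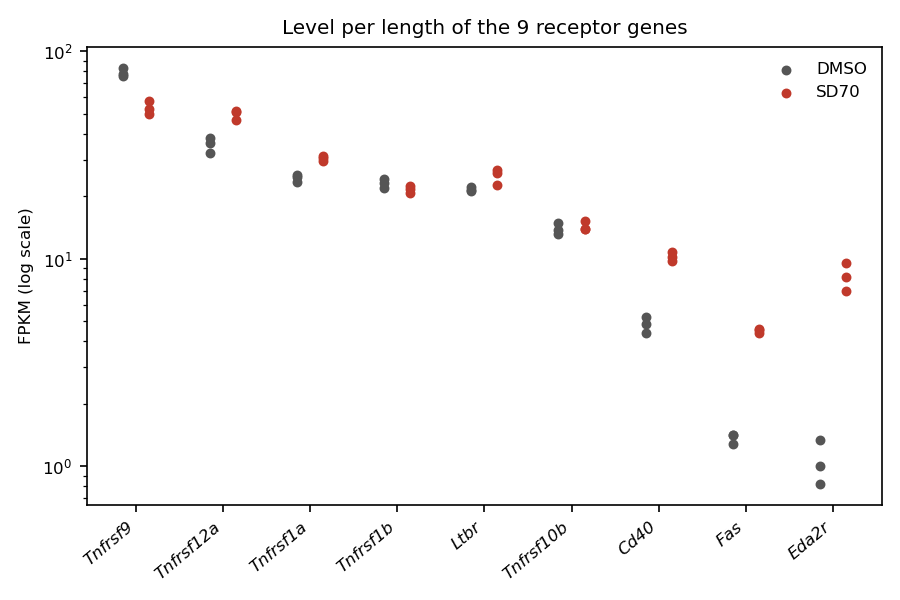
Level per length in FPKM (y axis, log scale) of the 9 receptor genes, ordered by their mean in DMSO, in the 3 DMSO (gray) and 3 SD70 (red) samples. Tnfrsf9, highest in DMSO at 79.0 FPKM, overlaps Tnfrsf12a in SD70, and Eda2r moves from the lowest place to one above Fas.

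The genes whose pattern was most like that of Eda2r were sought among 9622 tested genes averaging 100 normalized counts or more. Likeness was the root mean square difference, over the 6 samples, between log2 CPM values centred on the DMSO mean. The nearest were Wisp1 (0.148), a matricellular growth regulator, Sesn2 (0.175), a stress-induced inhibitor of mTORC1, Ppp1r15a (0.185), which encodes the eIF2alpha phosphatase subunit GADD34, Arid5a (0.186), an RNA-binding stabilizer of cytokine mRNAs, and Ddit3 (0.198), which encodes the stress transcription factor CHOP. Their log2FC values were between 2.58 and 2.81. For Tnfrsf9 the nearest genes were Cep55 (0.0228), Kif2a (0.0285), Cav1 (0.0351) and Fermt2 (0.0368), with log2FC values from -0.55 to -0.51. These distances are set mostly by the size of the difference between the groups.

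The other genes of the pathway were taken from 6 lists that leave out the 10 genes above. Of their 91 genes, 82 were listed and 60 were tested, with a median log2FC of -0.07 against 0.00 over all genes tested. In the lists 7 genes were called, 4 higher and 3 lower in SD70, or 11.7%, against 5.90% of all genes tested. At an adjusted p-value under 0.01 with no fold minimum, 15 rose and 20 fell, or 58.3%, against 49.9% of all genes, and 25 did not pass. Nothing particular to these lists is read from the counts.

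Among the remaining receptors of the superfamily, 7 were tested and 3 were called (42.9%, against 5.90% of all genes), all 3 lower in SD70, 1 more fell without reaching the fold minimum, and 3 did not pass, with a median log2FC of -0.63. DESeq2 called 2 of the 7, and limma 1 on log2(FPKM + 1) and 2 on log2(FPKM + 0.1). Tnfrsf18, which encodes the T-cell costimulator GITR, had 35.1, 43.7 and 35.5 normalized counts in DMSO and 11.2, 10.9 and 7.70 in SD70. It fell by 1.92 on the log2 scale (SE 0.280, edgeR adjusted p = 4.00e-07). On log2(FPKM + 1), which understates changes of low genes, its log2FC was -1.02 (limma adjusted p = 2.79e-06). Tnfrsf22, Tnfrsf23 and Tnfrsf26, which lie side by side on chromosome 7 between 143607685 and 143686436, encode receptors without a death domain, and the first 2 are known as decoys for TRAIL. Tnfrsf23 fell from 446 ± 30.0 to 221 ± 20.6 normalized counts (± SD, n = 3 per group), a log2FC of -1.01 (SE 0.0871, edgeR adjusted p = 4.33e-12). Tnfrsf22 fell from 911 ± 26.1 to 730 ± 57.5 (± SD, n = 3 per group), a log2FC of -0.32 (edgeR adjusted p = 6.52e-05). Both had counts that were not whole in all 6 samples, and the separate values of these related neighbours are uncertain. Tnfrsf23 went under the fold minimum without DMSO replicate 1 (-0.95), without SD70 replicate 3 (-0.95) and on log2(FPKM + 1) (-0.90). Tnfrsf26 was low, with 20.5, 16.5 and 32.6 normalized counts in DMSO and 11.2, 14.9 and 6.60 in SD70. Its log2FC of -1.07 (edgeR adjusted p = 0.00633) did not hold without DMSO replicate 3 (-0.75, adjusted p = 0.0889), without SD70 replicate 1 (-1.08, adjusted p = 0.0255) or without SD70 replicate 3 (-0.83, adjusted p = 0.045), nor with DESeq2 (adjusted p = 0.0532) or limma on log2(FPKM + 1) (adjusted p = 0.0245) and log2(FPKM + 0.1) (adjusted p = 0.0181). Tnfrsf21, the death receptor DR6, and Relt did not pass, with log2FC values of 0.76 (edgeR adjusted p = 0.0211) and -0.63 (adjusted p = 0.0117).

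Of 17 ligand genes other than Tnf, 12 were listed and the 3 with enough counts for a test gave no call, by edgeR, DESeq2 or limma, against 5.90% of all genes called by edgeR. From edgeR 2 of the 3 had an unadjusted p-value under 0.05, against 63.6% of all genes, and 1 passed the adjusted p-value (33.3%, against 49.9%). Tnfsf9, the ligand of 4-1BB, fell from 288 ± 9.31 to 165 ± 6.83 normalized counts (± SD, n = 3 per group), a log2FC of -0.80 (SE 0.0963, edgeR adjusted p = 7.95e-09). Both Tnfsf9 and its receptor gene Tnfrsf9 were lower in all 3 SD70 samples. Tnfsf12, which encodes the FN14 ligand TWEAK, and Tnfsf13b, which encodes BAFF, did not pass, with log2FC values of -0.22 (edgeR adjusted p = 0.0497) and -0.02 (adjusted p = 0.893). The ligand genes of the death receptors were hardly detected: Fasl had at most 2 counts and Tnfsf10, which encodes TRAIL, at most 3.

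Among receptor adaptors and kinases, 20 were tested and 14 passed the adjusted p-value (70%, against 49.9% of all genes), 7 higher and 7 lower, with a median log2FC of -0.01. Traf1, an adaptor of TNFR2, CD40 and 4-1BB and itself an NF-kappaB target, was the 1 called (5%, against 5.90% of all genes). It had 245.6, 236.0 and 272.4 normalized counts in DMSO and 988.4, 1019 and 963.7 in SD70. The groups were far apart, with a log2FC of 1.98 (SE 0.0732, edgeR adjusted p = 4.46e-22). Traf2 (log2FC 0.87), Tank (0.76) and the kinase gene Ripk1 (0.53) also rose, with adjusted p-values of 2.16e-13, 2.13e-13 and 3.38e-08 from edgeR.

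The ubiquitin regulators of TNF receptor complexes gave 13 tested genes. Of these 3 were called higher (23.1% called, against 5.90% of all genes), 1 more rose, 1 fell and 8 did not pass (38.5% past the adjusted p-value, against 49.9%), with a median log2FC of 0.03. Tnfaip3, which encodes the deubiquitinase A20, went from 368 ± 35.3 to 848 ± 84.1 normalized counts (± SD, n = 3 per group), a log2FC of 1.21 (SE 0.0785, edgeR adjusted p = 8.90e-15). Birc3, which encodes the ubiquitin ligase cIAP2, went from 353 ± 21.8 to 790 ± 23.2 (± SD, n = 3 per group), a log2FC of 1.16 (SE 0.0712, edgeR adjusted p = 5.65e-16). Spata2, which links the deubiquitinase CYLD to the linear ubiquitin ligase, rose from 1024 ± 37.0 to 2210 ± 194 (± SD, n = 3 per group; log2FC 1.11, edgeR adjusted p = 2.09e-17). Tnip1, which encodes an A20-binding protein, rose with a log2FC of 0.65 (edgeR adjusted p = 3.59e-12).

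In the death-inducing complex and among the caspases, 12 genes were tested and 0 were called by edgeR, as by DESeq2 and limma, against 5.90% of all genes called by edgeR. From edgeR 8 of the 12 had an unadjusted p-value under 0.05, against 63.6% of all genes. Of the 12, 2 rose, 4 fell and 6 did not pass the adjusted p-value (50% past it, against 49.9% of all genes), with a median log2FC of -0.16. Bid, a BH3-only protein cleaved by caspase-8, rose from 458 ± 1.36 to 879 ± 18.7 normalized counts (± SD, n = 3 per group), a log2FC of 0.94 (edgeR adjusted p = 1.42e-14). Fadd, the adaptor of FAS and the TRAIL receptor, rose with a log2FC of 0.54 (edgeR adjusted p = 8.49e-05). Casp6, an executioner caspase, fell from 553 ± 18.8 to 298 ± 42.3 (± SD, n = 3 per group), a log2FC of -0.89 (edgeR adjusted p = 3.97e-11). Casp9, the initiator caspase of the mitochondrial pathway, had a log2FC of -0.29 (edgeR adjusted p = 0.00282), which did not pass without DMSO replicate 3 (adjusted p = 0.0185), without SD70 replicate 1 (adjusted p = 0.0179) or with DESeq2 (adjusted p = 0.0172). Casp8 had a log2FC of 0.05 (edgeR adjusted p = 0.502), and Cflar, which encodes the caspase-8 inhibitor FLIP, one of -0.23 (adjusted p = 5.24e-04). Both of these were named after their values were seen.

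Enzymes and partners that release TNF ligands and receptors from the membrane had 5 genes tested, all 5 past the adjusted p-value (against 49.9% of all genes), 2 higher and 3 lower, and 0 called by edgeR, DESeq2 or limma (all 5 with an unadjusted p-value under 0.05, against 63.6% of all genes), with a median log2FC of -0.21. Adam17, the main sheddase of TNF and of both TNF receptors, and Rhbdf2, which carries it to the surface, rose by log2FC values of 0.24 (edgeR adjusted p = 1.13e-04) and 0.29 (adjusted p = 8.24e-05). Frmd8 and Rhbdf1 had log2FC values of -0.49 (edgeR adjusted p = 2.26e-05) and -0.40 (adjusted p = 6.01e-06).

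**Figure D4:**
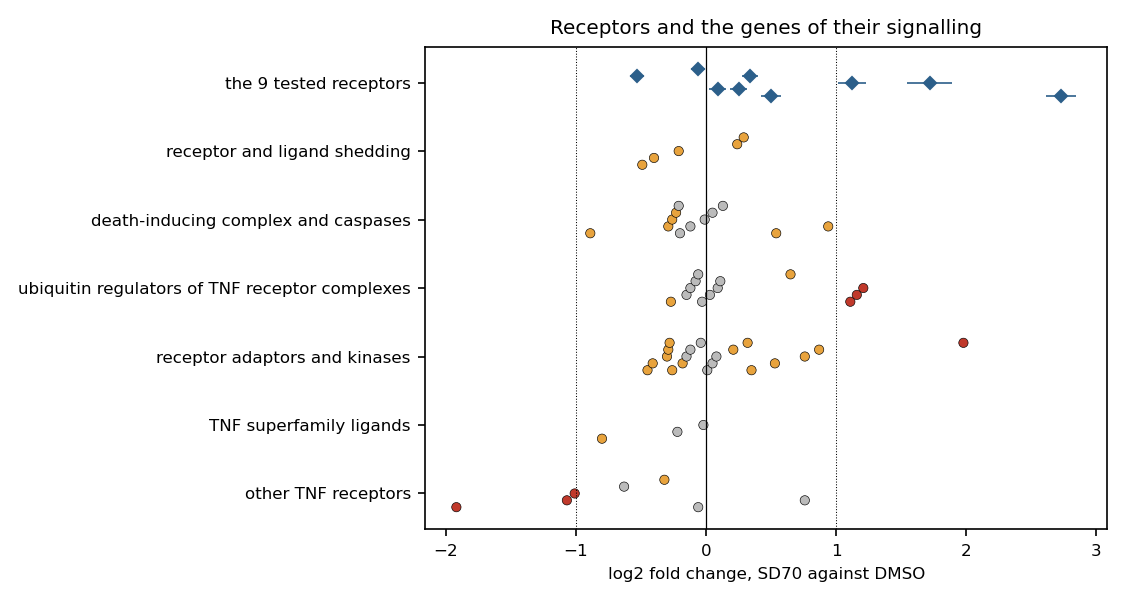
Log2FC of SD70 against DMSO (x axis) for the 9 tested receptor genes (blue diamonds, with standard error) and for the tested genes of the 6 pathway lists, in red where called, orange where past the adjusted p-value alone and gray where not. Traf1 at 1.98 is the gene of the lists farthest to the right and Tnfrsf18 at -1.92 the one farthest to the left; dotted lines mark a log2FC of 1 in either direction.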

How the data were processed

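RNA-seq of 3 DMSO and 3 SD70 samples of Lewis cells was used, with groups from the sample titles. Per the paper's methods, BGISEQ-500 reads were aligned with HISAT, the mouse reference being GRCm38.p6; the submitters' processing notes also name StringTie 1.3.3b and a different mouse build, and the counting tool is not given in the sources used here. The authors deposited an expected count per gene, which is not normalized, and a level that fits FPKM, which is scaled by length and library size. The file headers name the deposited FPKM only as an expression value.

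Expected counts were rounded, filtered with filterByExpr, scaled by TMM and fitted with edgeR 4.0.16 (glmQLFit, robust, and glmQLFTest; R 4.3.3). Benjamini-Hochberg adjustment ran over all 11552 genes fitted. A call needed an adjusted p-value below 0.01 and a log2 fold change beyond 1 in either direction. The scripts were tested on simulated data. Standard errors came from the quasi-likelihood F statistic.

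The 10 genes, the pathway lists and the markers were chosen with earlier results of these data known. The text names all 10 genes and, of each list, the called genes and up to 4 in all past the adjusted p-value by absolute log2 fold change; listed genes without a test, and Tnfrsf21, Relt, Tnfsf12, Tnfsf13b, Casp8 and Cflar, were named outside this rule. Of the genes most like Eda2r and Tnfrsf9 in pattern, 1 is not reported here. Alternatives were other scalings and filters, a replicate block, leaving out each sample, DESeq2 1.42.0, limma 3.58.1 on log2(FPKM + 1) and log2(FPKM + 0.1), and other thresholds. No pair of samples in a group was alike within counting noise (2.12 to 4.97 chi-square units per gene), so none was counted as one library deposited more than once.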

Additional observations from a re-analysis of the deposited data

How the results depend on the processing

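Over 16 alternatives, 284 genes were called on log2(FPKM + 1) and 5767 with no fold minimum, against 681 in the fit as reported, and the others gave 542 to 767. Higher genes were 202 of the 284 and 380 of the 681. Leaving out each sample gave 621 to 721. With no fold minimum, 35 genes of the pathway lists and 7 of the 10 receptor and ligand genes passed, against 7 and 3. Leaving out each sample gave 5 to 7 list genes and 3 in every case. These receptor and ligand genes were chosen with this contrast known, so their passing is a description and supports nothing. Eda2r and Fas passed in every alternative, and Cd40 was lost on log2(FPKM + 1). Tnf passed in edgeR when all genes with at least 1 count were tested. It was not among the genes that passed in DESeq2 over the same 16056 genes. Of 126 values of the 9 receptors under the alternatives that refit the data, 0 of the called genes reversed, and the 3 that moved by over 1 SD between replicates were Eda2r (2.17), Fas (1.22) and Cd40 (0.95), each on log2(FPKM + 1), whose construction shrinks low values. The pathway genes named by the rule above had 292 such values. Of these, 283 kept their side of the adjusted p-value and 9 lost it, 6 of them Tnfrsf26 and 3 Casp9, and 0 reversed. Tnfrsf21, Relt, Tnfsf12, Tnfsf13b, Casp8 and Cflar, named outside that rule, were not included.

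A replicate block in the model gave 692 called genes, 7 of the lists and 3 of the receptors, and no call of a named gene changed. The correlations of deviations between same-numbered samples were -0.07, 0.05 and 0.11 across 11552 genes, so the numbers were not taken as pairs. Groups of 3 samples limit the precision, as do low counts for Tnf, Tnfrsf26 and Fas.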
